A study of Bos taurus with 8 samples.

Results

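Leukocyte adhesion genes were followed in the granulocytes of pregnant and non-pregnant cows. They were chosen by gene symbol, a rule that uses no measured value but was set with earlier results of these data known, and comprise 9 of the 5011 genes tested on the array: SELPLG, ITGAM, ITGAL, ITGA4, ITGB1, ITGB2, ICAM1, ICAM3 and PECAM1. Granulocytes are white blood cells with granules, for the most part neutrophils, and their total RNA was hybridised to single-colour bovine oligonucleotide arrays, 1 array per sample. The 4 samples of the first group were taken on day 7 of the oestrous cycle, before an embryo was transferred, from animals that were not pregnant. The 4 samples of the second group were taken on day 21 from pregnant animals after embryo transfer. By their source names, both groups come from the same 4 cows, so each cow has a day 7 and a day 21 sample, and breed and age are not given in the sources used here. Day, pregnancy, embryo transfer and order of sampling cannot be told apart in this design.

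Leukocytes leave the blood in a series of adhesive steps. Selectins catch the rolling cell through sialylated, sulfated glycoproteins, of which PSGL-1, the product of SELPLG, is the main P-selectin ligand on neutrophils. Chemokine signals then switch integrins, paired alpha and beta chains, into a form that binds immunoglobulin-family ligands such as ICAM-1, and PECAM-1 takes part in the passage between endothelial cells. Neutrophils rely mainly on integrins with the ITGB2 chain (CD18), and cattle with inherited loss of CD18 have bovine leukocyte adhesion deficiency, in which neutrophils fail to reach infected tissue.

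Each of the 9 genes was read by 1 probe of 60 bases. The stretches below, 30 bases from each probe, are those of SELPLG, which had the lowest p among the 9 genes, and of the integrin chains whose changes are compared. Capitals mark the longest run that the probe shares with any other probe on the array, which was 11 to 14 bases for all 9 probes.
SELPLG, probe A_73_101287, bases 18 to 47: ccttaggggACTCTGTGGACCtacaagcta
ITGAM, probe ABR1839, bases 31 to 60: gattgagggtacgCAGACAGGAAGtaccag
ITGAL, probe ABR95, bases 31 to 60: ccagtgaaatCCCTGGAGAAGATGctgggc
ITGB1, probe ABR205, bases 1 to 30: aaatgaATGCCAAATGGgacacgggtgaaa
ITGB2, probe ABR526, bases 31 to 60: atccccttggttATGCTGCCCCCaatcaat
No probe of a member shared its longest run with the probe of another member. The position of the probes within their transcripts and in the genome was not determined here. No transcript or genome sequence was at hand, and no build is named for the array design.

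Values are normalised log2 signals: the log2 of the scanner's processed signal minus the 75th percentile of that array, so that 0 is the level below which 75% of the probes of the array lie. Levels of different probes are not comparable, so changes of 1 probe between arrays are described. For marker lists the summed signal of each array is given as well, and bright probes weigh most in it. Between 56.8% and 74.9% of the 15208 probes of an array were well above background, and the 4 arrays per group limit the precision. The 56.8% is that of the day 7 array of cow 4. On it 31.0% of probes had surrogates, values given for signals near background, against 10.6% to 18.5% on the other arrays. Of the 4 slides, slide 1 carried cow 1 on both days and cow 2 on day 7, slide 2 only cow 2 on day 21, slide 3 cow 3 and slide 4 cow 4. The day 21 array of cow 2 had 129 spots marked as outliers by the scanner software, against 0 to 12 elsewhere. With limma, 0 of 10459 tested probes (0%) passed at an adjusted p under 0.05, with 0.232 as the lowest adjusted p. Without adjustment, limma gave a p under 0.05 for 476 probes lower on day 21 (4.55%) and 515 higher (4.92%), and for 1991 in all with cow as a block.

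Among the 9 adhesion genes, 0 passed limma's test over all probes. All 9 met the filter on dim probes, which asks for a signal well above background on 4 of the 8 arrays whatever their group. Day 21 means were lower for 6 genes and higher for 3, beside 45.0% of all tested probes with a lower mean, or 57.2% of probes when dim ones were kept. The median log2 change was -0.54, against 0.08 over all genes tested, and it was -0.15 without the day 21 array of cow 2. SELPLG was the 1 member with an unadjusted p under 0.05. It was also the 1 member of the 8 measured on every array whose groups did not overlap, beside 2.60% of probes that lay wholly lower on day 21. SELPLG and ITGA4 were lower in 4 of 4 cows, 2 of 8 members beside 14.3% of probes. No member was higher in 4 of 4 cows, against 15.5% of probes.

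**Figure D1:**
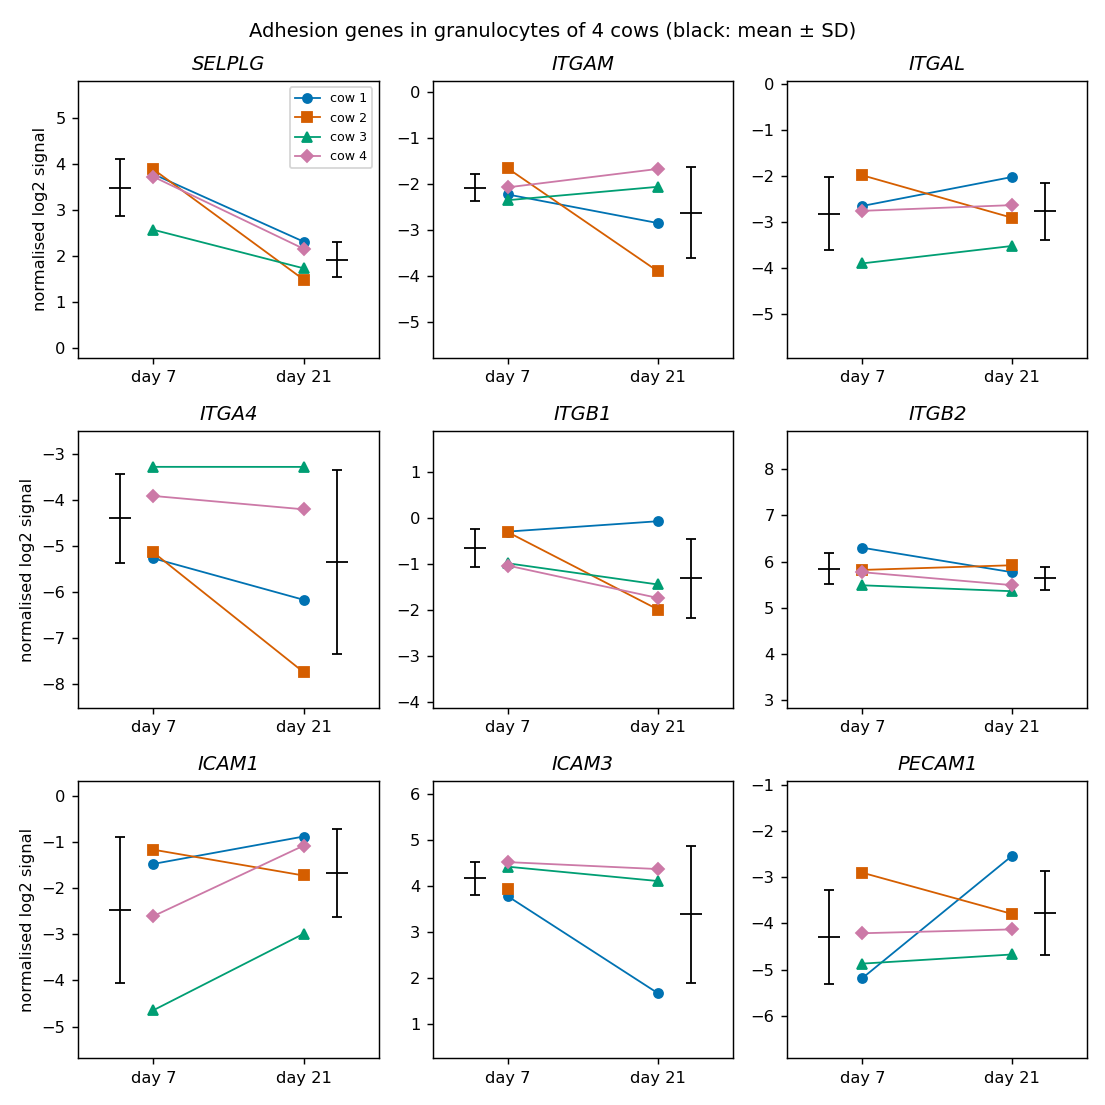
Normalised log2 signal of the 9 adhesion genes on day 7 and day 21, 1 line and colour per cow, with the group mean ± SD in black (n = 4, but n = 3 for ICAM3 on day 21). Each panel spans 6 log2 units. The SELPLG lines all descend, from 2.57 to 3.88 on day 7 to 1.49 to 2.31 on day 21, while ITGB2 stays between 5.36 and 6.30 on every array.

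The selectin ligand came first in the adhesion sequence and had the change with the lowest p. SELPLG stood at 3.78, 3.88, 2.57 and 3.72 on day 7 in cows 1 to 4, and at 2.31, 1.49, 1.73 and 2.16 on day 21. The highest day 21 value, that of cow 1, lay under the lowest day 7 value, that of cow 3, so the groups did not overlap. The means were 3.49 ± 0.61 on day 7 and 1.92 ± 0.38 on day 21 (SD, n = 4). This gave a log2 change of -1.56 ± 0.40 (SE), 2.95-fold lower, with an unadjusted p of 0.00278 and an adjusted p of 0.350 by limma. Cow 2 had the widest gap, -2.39, and cow 3 the narrowest, -0.84, with -1.46 in cow 1 and -1.56 in cow 4. By its p, SELPLG ranked 83 among the 10459 probes and 49 among those lower on day 21. Slide 1 by itself, with 1 day 21 and 2 day 7 samples, gave -1.51, and slides 3 and 4 hold the differences of cows 3 and 4 above. SELPLG is transcribed in most leukocytes, and in a mixed fraction fewer cells of a type and less RNA per cell cannot be told apart. With array quality weights limma called SELPLG (-1.44, adjusted p = 0.0370), and its adjusted p over all settings ran from 0.0370 to 1.00. The weights were highest for cow 4, 2.54 on day 7 and 3.47 on day 21, and lowest for cow 1, 0.357 and 0.361.

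**Figure D2:**
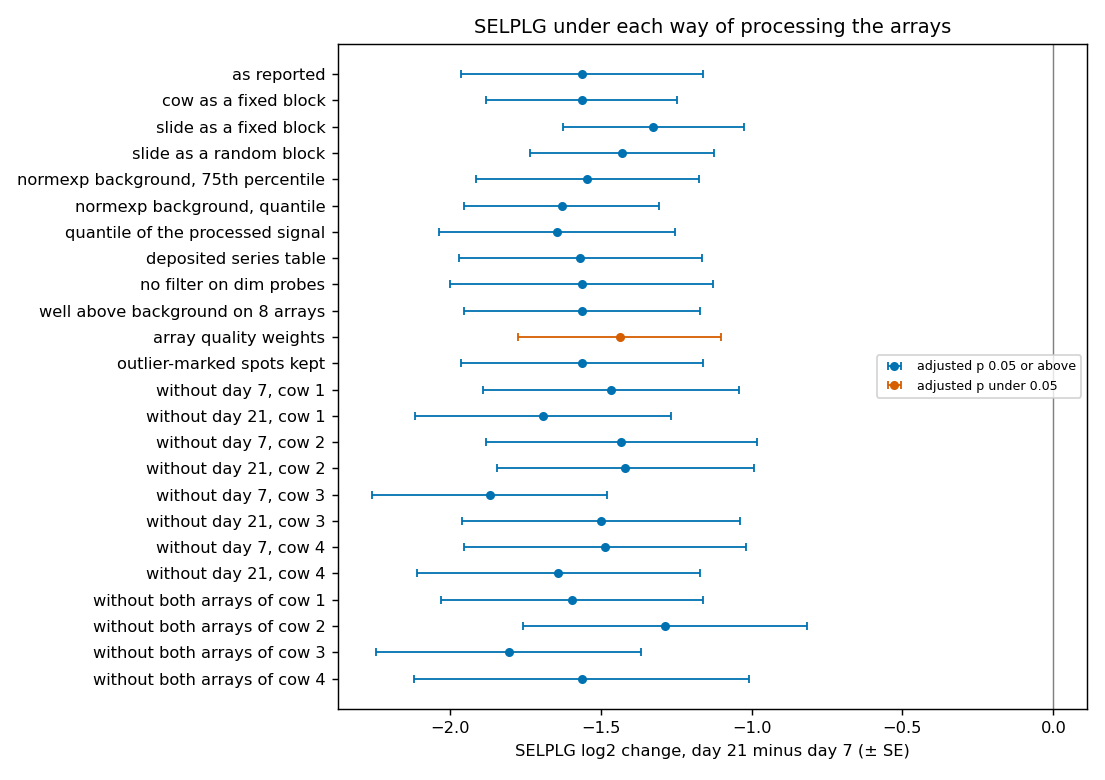
Log2 change of SELPLG, day 21 minus day 7, with its SE, under the reported fit and the 23 alternatives; orange marks an adjusted p under 0.05. The change lies between -1.87 and -1.29 throughout, and only the fit with array quality weights passes.

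The shared beta chain of the neutrophil integrins varied least. ITGB2, which pairs with ITGAL to form LFA-1 and with ITGAM to form Mac-1, was at 6.30, 5.82, 5.49 and 5.77 on day 7 and at 5.77, 5.92, 5.36 and 5.49 on day 21. The groups overlapped, and no array stood more than 1 log2 unit from another. The log2 change was -0.21 ± 0.33 (SE; limma adjusted p = 0.875), with differences from -0.53 in cow 1 to 0.10 in cow 2. It was -0.058 without the day 7 array of cow 1 and -0.33 without the day 7 array of cow 3, the lowest and highest of its leave-out values in size. The genes whose 8 array values followed ITGB2 most closely were ATP6V1D, PFN1 and DHX30. Their root mean square distances, after each gene was centred on its own mean, were 0.0940, 0.0976 and 0.121 log2 units among 4928 genes compared. PFN1 encodes profilin, an actin-binding protein, and ATP6V1D a subunit of the vacuolar proton pump.

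The alpha partners of ITGB2 did not move in 1 direction across the cows. Both were lower in cow 2 and higher in cows 3 and 4, and they parted in cow 1. ITGAM, the CD11b chain of Mac-1 that binds complement iC3b and fibrinogen, was at -2.23, -1.67, -2.36 and -2.08 on day 7 and at -2.85, -3.90, -2.07 and -1.68 on day 21. It was lower in cows 1 and 2 and higher in cows 3 and 4, and the groups overlapped. The log2 change was -0.54 ± 0.49 (SE; limma adjusted p = 0.756), of which cow 2 gave -2.23; without both arrays of cow 2 it was 0.023.

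ITGAL, the CD11a chain of LFA-1 that binds the ICAMs, was at -2.65, -1.99, -3.90 and -2.76 on day 7 and at -2.02, -2.91, -3.52 and -2.63 on day 21. The groups overlapped almost fully, with a log2 change of 0.05 ± 0.48 (SE; limma adjusted p = 0.983), and -0.20 once cow 1 was left out on day 21. ITGAL was lower in cow 2, by -0.92, and higher in the other 3 cows. Set against each other within a cow, the change of ITGAM minus that of ITGAL was -1.25, -1.31, -0.09 and 0.28 in cows 1 to 4. Its mean of -0.59 ± 0.81 (SD, n = 4) was smaller than the spread between cows.

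The other integrin pair, ITGA4 with ITGB1, forms VLA-4, the receptor for VCAM-1 and fibronectin known mainly from lymphocytes, monocytes and eosinophils. ITGB1 was at -0.30, -0.31, -0.99 and -1.04 on day 7 and at -0.08, -1.99, -1.45 and -1.74 on day 21. It was lower in cows 2, 3 and 4 and higher in cow 1, and the day 21 value of cow 1 was the highest of all 8. The log2 change was -0.65 ± 0.46 (SE; limma adjusted p = 0.680), -1.07 without the day 21 array of cow 1 and -0.31 without both arrays of cow 2. The change of ITGB1 minus that of ITGB2 was negative in 3 of 4 cows, with a mean of -0.44 ± 1.04 (SD, n = 4).

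ITGA4 was at -5.27, -5.14, -3.29 and -3.92 on day 7 and at -6.17, -7.74, -3.29 and -4.21 on day 21. Cows 1 and 2, on slides 1 and 2, were the lower on both days and cows 3 and 4, on slides 3 and 4, the higher. Cow and slide cannot be told apart in this split. The 4 differences were -0.90, -2.60, -0.001 and -0.29, the direction in cow 3 resting on a gap near 0. On the day 21 array of cow 2 the value is a surrogate that the scanner software gives for a signal not distinguishable from background. The log2 change was -0.95 ± 0.89 (SE; limma adjusted p = 0.766), -0.15 without that array and -0.22 after normexp background correction.

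Members of the immunoglobulin family lie downstream in the cascade, as integrin ligands and at the endothelial junction. ICAM1, the inducible ligand of LFA-1 and Mac-1, was at -1.47, -1.16, -4.65 and -2.61 on day 7 and at -0.88, -1.72, -2.99 and -1.08 on day 21. It was higher in cows 1, 3 and 4, by 0.59, 1.66 and 1.53, and lower in cow 2, by -0.56. The log2 change of 0.80 ± 0.76 (SE), 1.75-fold, had an adjusted p of 0.766 by limma. Leaving out an array or a cow gave 0.08 to 1.26, the 0.08 without the day 7 array of cow 3, the lowest of the 8. With cow as a block the change was 0.80 ± 0.42 (SE, limma adjusted p = 0.348).

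ICAM3, a ligand of LFA-1 carried by resting leukocytes themselves, was at 3.77, 3.94, 4.42 and 4.52 on day 7, and at 1.67, 4.11 and 4.36 on day 21 in cows 1, 3 and 4. The spot of the day 21 array of cow 2 is marked as an outlier, and the fit leaves it out. The 3 measured cows were lower on day 21, by -2.10 in cow 1 but only -0.31 and -0.15 in cows 3 and 4. The log2 change was -0.78 ± 0.64 (SE; limma adjusted p = 0.737), and it was 0.074 without the day 21 array of cow 1. With the marked spot kept, cow 2 differed by -3.27 and the change was -1.46 ± 0.76 (SE; limma adjusted p = 0.597).

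PECAM1, known from platelets, endothelium and leukocytes, was at -5.19, -2.90, -4.87 and -4.21 on day 7 and at -2.53, -3.80, -4.67 and -4.13 on day 21. Cow 1 was higher by 2.66 and cow 2 lower by -0.90, while cows 3 and 4 differed by 0.20 and 0.08. The log2 change was 0.51 ± 0.59 (SE; limma adjusted p = 0.818), and -0.20 without both arrays of cow 1.

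**Figure D3:**
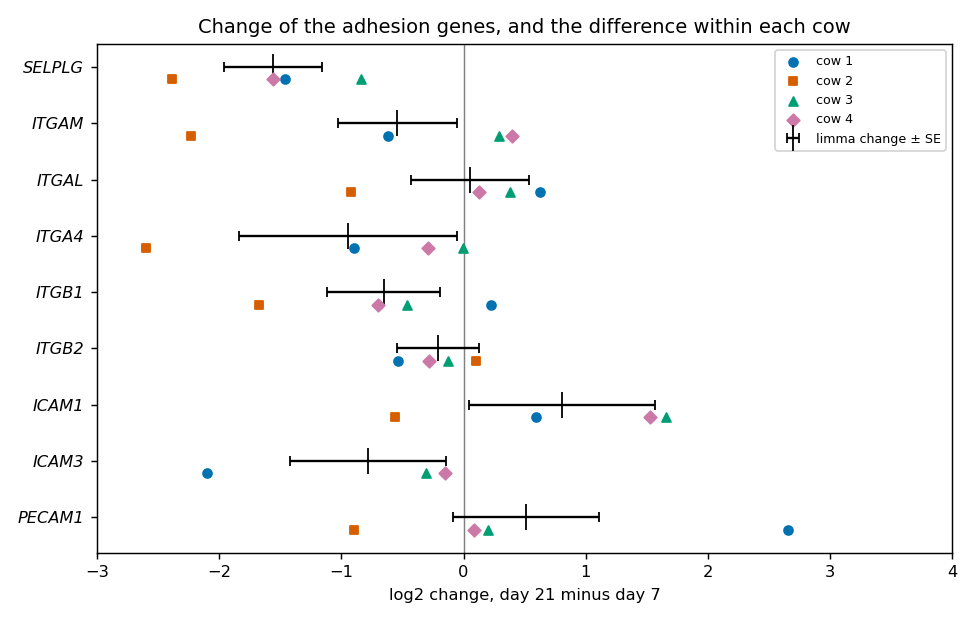
Log2 change of each adhesion gene, day 21 minus day 7, as the limma estimate ± SE (black) with the difference within each cow beneath it. For SELPLG all 4 cows lie at -0.84 or lower, and cow 2 has the lowest difference of the cows for 7 of the 8 genes measured in it, all but ITGB2.

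By cow, the members did not move alike. In cow 2, 7 of 8 measured members were lower on day 21, with a median difference of -1.30, while the median over all tested probes in that cow was 0.15. In cow 1, 5 of 9 were lower and the median was -0.53, beside -0.14 over all tested probes. Cows 3 and 4 each had 5 of 9 lower, with medians of -0.001 and -0.15, beside 0.07 and 0.08 over all tested probes. The part that the separate slide of the day 21 array of cow 2 had in these differences was not tested.

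Around these genes, selectins, other selectin ligands and the enzymes that build them gave a divided picture. Of 12 tested genes of this list, 6 were lower and 6 higher, 0 passed the test, and the median log2 change was 0.02. TPST2, a Golgi enzyme that sulfates tyrosines, a modification PSGL-1 needs to bind P-selectin, gave a log2 change of -0.85 ± 0.40 (SE), with differences from -1.39 in cow 2 to -0.04 in cow 1. TPST1, the other enzyme of that kind, gave 0.67 ± 0.43 and was higher in 4 of 4 cows, as were 15.5% of all probes. The limma adjusted p values of TPST2 and TPST1 were 0.540 and 0.657.

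Cytoplasmic activators and signalling partners of integrins were lower for 13 of 17 tested genes and higher for 4, with a median of -0.30. By limma 0 passed the test and 2 had an unadjusted p under 0.05, both lower. Over all genes tested, 2224 of 5011 were lower, 187 of them with an unadjusted p under 0.05. RASGRP2, the exchange factor that loads Rap1 and so activates ITGB1 to ITGB3 integrins in platelets and neutrophils, was at 0.19 ± 0.30 on day 7 and -0.97 ± 0.84 on day 21 (SD, n = 4). Its log2 change was -1.16 ± 0.45 (SE), 2.24-fold lower, from -0.16 in cow 1 to -1.70 in cow 4. RAP1A, a Rap1 GTPase itself, gave -0.72 ± 0.37, and VAV1, a signalling protein downstream of PSGL-1 and integrins, -0.82 ± 0.34. Each of the 3 was lower in every cow, as were 14.3% of all probes, and limma's adjusted p lay between 0.497 and 0.594. They were named for having the smallest p of the list, which favours genes that are alike across cows. ZYX, a focal adhesion protein chosen after its values were seen, gave -2.56 ± 1.78, of which cow 2 alone gave -9.69 and the other cows -0.01 to -0.47.

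Other integrin chains had 5 tested genes of the 21 listed, with 2 lower, 3 higher, 0 called and a median of 0.09. ITGA5, the alpha chain of the fibronectin receptor, gave 0.70 ± 0.56, of which cow 2 gave 2.51 and the other cows -0.04 to 0.20. ITGB3, which pairs with ITGA2B in platelets, gave 0.71 ± 0.55 and was well above background on 1 of the 4 day 7 arrays. ITGAV gave -0.33 ± 0.40. Endothelial and junction ligands had 7 tested genes, 2 lower, 5 higher and 0 called, with a median of 0.28. CD34, a sialomucin of endothelium and blood progenitors, gave 1.35 ± 0.58, but was well above background on 1 of the 4 day 7 arrays and had surrogates on 2 arrays. FN1, fibronectin, gave 0.57 ± 0.55 and CD47, the ligand of SIRPA, 0.57 ± 0.62. The FN1 probe was well above background on 2 of the 4 day 7 arrays and 3 of the 4 day 21 arrays, and another FN1 probe on none.

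**Figure D4:**
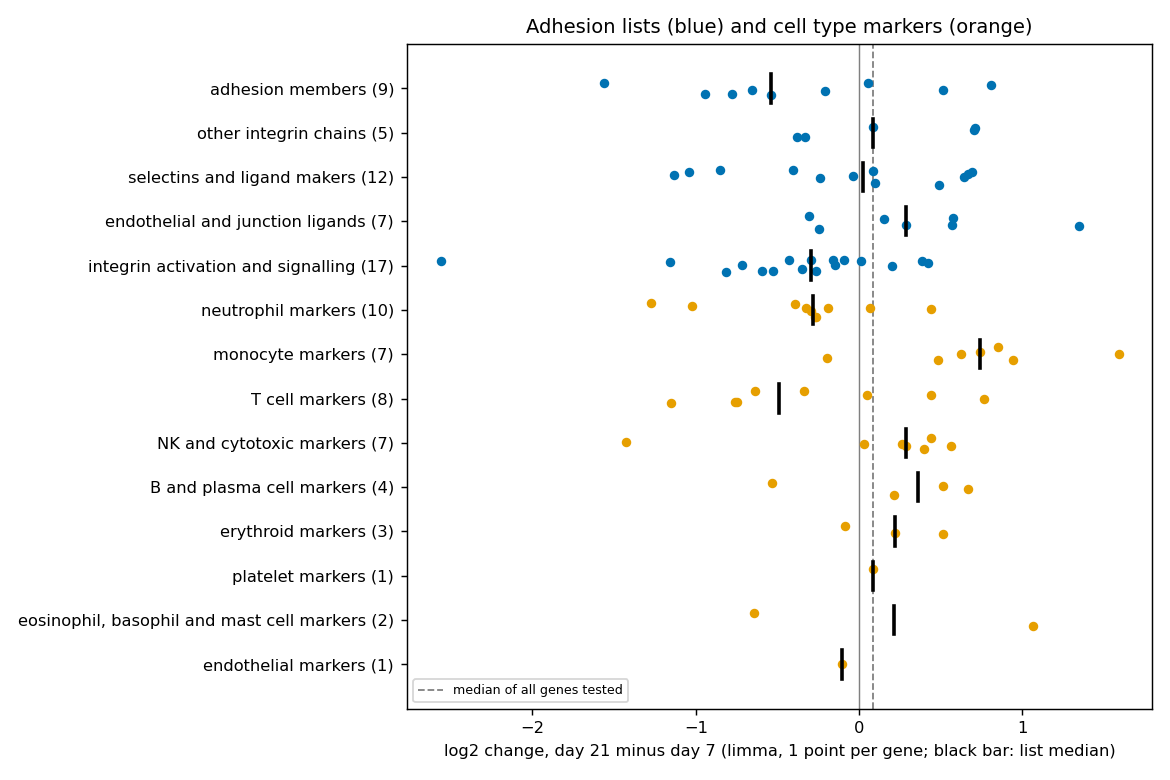
Log2 change, day 21 minus day 7, of each tested gene in the adhesion lists (blue) and cell type marker lists (orange), with the number of genes in brackets, the list median as a black bar and the median of all genes tested, 0.08, as a dashed line. The 9 adhesion genes and the integrin activation list have medians of -0.54 and -0.30, and the isolated point at -2.56 is ZYX.

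Markers of the granulocyte fraction were present: 11 of 12 neutrophil probes were well above background on all 8 arrays. The neutrophil list was lower for 8 of 10 genes (median -0.28), and the sum of its signals relative to the array percentile spanned 186.2 to 236.3 on day 7 and 112.5 to 242.6 on day 21. These sums skip outlier-marked spots and are not over the same genes on every array. S100A12, with the highest day 7 mean of the list (6.67), could not be compared between days in cow 2 for a missing value. NCF1, an NADPH oxidase subunit, gave -1.27 ± 0.51 and NCF4 0.44 ± 0.38. Markers of other leukocytes were also detected. T cell markers were lower for 5 of 8 genes (median -0.49), and 7 of 8 probes were well above background on all arrays, with sums of 6.78 to 14.9 on day 7 and 8.85 to 13.3 on day 21. Here too the sums are not over the same genes on every array, since CD3E lacked a value in cow 2. CD2 gave -1.15 ± 0.51 and CD5 0.76 ± 0.48.

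Monocyte markers were higher for 6 of 7 genes (median 0.74), beside 2787 of 5011 over all genes tested. Their sums, in which bright probes weigh most, were 6.58 to 9.57 on day 7 and 10.5 to 17.8 on day 21. CD14, the lipopolysaccharide co-receptor, gave 1.59 ± 0.45, with differences from 0.04 in cow 1 to 2.71 in cow 4. VCAN gave 0.85 ± 0.34, where a dimmer probe gave -0.07. The NK and cytotoxic list had 6 of 7 genes higher (median 0.29, sums 0.887 to 3.17 and 0.823 to 4.04). NCR1 gave -1.42 ± 0.91 and KLRD1 0.56 ± 0.55. The NCR1 probe was well above background on 2 of the 4 day 21 arrays, and it was higher by 1.82 in cow 1. B and plasma cell genes had 3 of 4 higher (median 0.36; sums 15.3 to 31.5 and 15.4 to 19.7), with CD79A at 0.51 ± 0.32 and BLK at -0.53 ± 0.36. No gene of these lists passed limma's test.

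Sources of PECAM1 and integrins outside the leukocytes were sparsely read. The platelet list had 1 tested gene, ITGA2B, at 0.09 ± 0.52. Of 5 endothelial probes 0 were well above background on all arrays and those of CDH5 and KDR on none, while TEK gave -0.11 ± 0.42. In the erythroid list ALAS2 gave 0.51 ± 0.42 and AHSP 0.22 ± 0.34, and SLC4A1 and HBB were not well above background on any array. Of eosinophil and basophil genes, HDC gave 1.06 ± 0.47, well above background on 1 of the 4 day 7 arrays, and CCR3 -0.64 ± 0.91. The part of cell composition in the changes of SELPLG and the other adhesion genes was not tested.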

How the data were processed

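The authors scanned each array with Agilent Feature Extraction 9.5, per the submitters' processing notes, and deposited the intensity of every spot. The processed signal, per the file headers, is a background-subtracted and detrended intensity with surrogates for signals near background. The deposited series table holds log2 values: each column equals log2 of the processed signal minus 1 constant, within 0.00485; minus the 75th percentile of the array, this constant is -0.0162 to -0.00711. Its scale and direction are thus known, its column medians lie between -3.53 and -3.29, and it was used as an alternative.

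Control spots and outlier-marked spots were left out. A probe entered the test when 4 or more of the 8 arrays read it well above background, which left 10459. Probes were named through RefSeq (ARS-UCD2.0) by accession, gene identifier, name or description, for 7104 of 15208 probes; a listed gene was read by its brightest tested probe. Groups were compared with limma 3.58.1 in R 4.3.3 with no block, adjusted by Benjamini-Hochberg over all tested probes; the code was tested on simulated data. Errors are SE unless SD is written. Named genes beyond the members were the 3 of smallest p per adhesion list, 2 per marker list, and the 3 nearest to ITGB2; 1 gene so named is not reported here. Members and lists were chosen with earlier results of these data known.

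The source names pair the samples by cow. Deviations from the group means correlated at 0.172 to 0.752 within a cow and at -0.474 to 0.302 between cows. Cows 1, 3 and 4, each with both arrays on 1 slide, gave 0.476, 0.752 and 0.436. Cow 2, on 2 slides, gave 0.172, under the 0.221 of its day 21 array with the day 7 array of cow 4. The 0.302 belongs to cow 2 on day 7 and cow 1 on day 21, both on slide 1. Cow and slide cannot be told apart in these correlations.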

Additional observations from a re-analysis of the deposited data

Results flagged for a closer look

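In SELPLG on day 7, the value of cow 3, 2.57, lay far under the other 3 cows, which were between 3.72 and 3.88. This was the 1 group of 17 tested in which the gap to the nearest sample passed Dixon's critical value for 4 samples, and chance gives about 1 in 20. Cow 3 was not set apart on day 21, at 1.73. Without its day 7 array the log2 change of SELPLG was -1.87 in place of -1.56.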

How the results depend on the processing

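The 9 members were refitted under 23 settings, of which 12 leave out an array or a cow; keeping outlier-marked spots was chosen after seeing the data. With cow as a replicate block limma called 0 probes in each direction and SELPLG gave -1.56 ± 0.32 (adjusted p = 0.128); the block changed no call. Array quality weights called 280 probes higher and 321 lower, among them 1 member, SELPLG (-1.44), and turned ITGAM to 0.058. Slide as a random block called 2 higher and 10 lower. Leaving out an array or a cow gave 0 to 16 probes higher and 0 to 35 lower: 13 and 35 without the day 21 array of cow 1, 16 and 22 when cow 1 was dropped on both days, and 0 otherwise, none of them a member. The count of lower members ranged from 5 to 8 there. SELPLG, ITGA4, ITGB1, ITGB2 and ICAM1 kept their direction in all settings that tested them. The direction turned when arrays were left out for ITGAM (-0.86 to 0.023), ITGAL (-0.31 to 0.33 without an array, 0.38 without cow 2), ICAM3 (-1.27 to 0.074) and PECAM1 (-0.20 to 0.98); the cause was not tested. ITGAL was -0.20 without the day 21 array of cow 1, -0.31 without the day 7 array of cow 3, -0.14 without cow 1 and -0.056 without cow 3. Each member has 1 probe, so averaging probes changed nothing. ITGA4 had no value when all 8 arrays had to be well above background.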
